A study of Saccharomyces cerevisiae with 7 samples.

Results

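The nuclear transport machinery examined here comprised 50 genes of budding yeast, chosen by function from the names on the array. Their signals were not a criterion, but the choice was made with earlier results of these data known. The 50 were 15 genes of transport receptors (4 exportins, the classical import pair and 9 other importins), 7 genes of the Ran system and 28 nucleoporin genes, among 6225 names in all. Each was measured by 1 probe with 7 spots. All 50 were well above background on all 7 arrays, as were 5978 of the 6225 names.

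Proteins cross the nuclear envelope through the nuclear pore complex, a ring-shaped assembly of nucleoporins whose phenylalanine-glycine (FG) repeats fill the channel. Receptors of the karyopherin family recognise a signal in their cargo, importins a nuclear localization signal and exportins a nuclear export signal (NES), and carry it across. The small GTPase Ran sets the direction: it is kept in its GTP form in the nucleus, where it releases the cargo of importins and joins that of exportins, and GTP is hydrolysed in the cytoplasm. *CRM1* (systematic name *YGR218W*, also called *XPO1*) encodes the exportin for leucine-rich NESs, the kind of signal that one of the GFPs in the study carried.

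The study asked how yeast responds when a GFP with a localization signal or another modification is expressed up to the level the cell tolerates. The host was BY4741, a *MATa* laboratory strain with the alleles *his3Δ1*, *leu2Δ0*, *met15Δ0* and *ura3Δ0*, and all 7 strains carried a multicopy plasmid with *URA3* and a weak *LEU2* allele and were grown to log phase in synthetic medium lacking uracil. The groups, each of 1 array, were the empty vector; GFP and GFP-Deg (GFP with a degradation signal from mouse ornithine decarboxylase), both under *TDH3pro*; NES-GFP (with the export signal of human protein kinase inhibitor), under *HXT7pro*; and GFPm3 (a GFP with misfolding mutations), MTS-GFP (with the mitochondrial targeting signal of Mrps12) and SS-GFP (with the secretion signal of trypanosome EP procyclin), under *PYK1pro*. Between constructs under different promoters, promoter and modification cannot be told apart. NES-GFP alone was under *HXT7pro*. Of the deleted genes, *HIS3* and *MET15* were well above background on 0 of 7 arrays, and *LEU2* and *URA3*, which the plasmid carries, on 7. The **a**-cell genes *STE2*, *MFA1*, *MFA2* and *BAR1* were so on 7 arrays, but so was the alpha-cell gene *STE3*, and *MF(ALPHA)1* was on 6, so the mating type was not settled by this criterion. Their signals differed, in log2 over the 75th percentile of the array. *BAR1*, the lowest of the **a**-cell genes, lay between -0.28 and 1.24, *STE3* between -3.21 and -2.85 and *MF(ALPHA)1* between -8.31 and -6.85, the order of a *MATa* strain.

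Between 97.0% and 98.9% of the yeast spots of an array were well above background and 0 were saturated. A level is given as log2 of the signal over the 75th percentile of its array, and a deviation is the level minus the mean of the 7 arrays, also in log2. With 1 array per construct, no value has a replicate error and no test was made. The SD between the 7 spots of a probe, given as ± below, covers the measurement on that array and leaves out culture, labelling and hybridization; for the 50 genes it lay between 0.015 and 0.13 with a median of 0.051. Slide 1 held NES-GFP, MTS-GFP, GFPm3 and the empty vector, and slide 2 held SS-GFP, GFP-Deg and GFP.

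*CRM1*, the receptor of the NES, was nearly level across the constructs. Its level was -0.80 in the empty vector, -0.71 in GFP, -0.72 in GFP-Deg, -0.88 in GFPm3, -0.99 in MTS-GFP, -0.93 in NES-GFP and -0.82 in SS-GFP, with a spot SD between 0.019 and 0.042. On a linear scale these levels ran from 0.503 to 0.610 times the 75th percentile, a 1.21-fold span. The highest arrays, GFP and GFP-Deg, differed by less than the spot SD, as did the empty vector and SS-GFP, while each of the other 4 steps down this order, through GFPm3 and NES-GFP to MTS-GFP, was larger than the spot SD. NES-GFP, 0.13 below the empty vector on the log2 scale, was thus the lowest for *CRM1* after MTS-GFP, but this place depended on the processing. It was 3 from the lowest with quantile, loess or normexp normalization and with the slide mean as reference, and the highest of the 7 without scaling between arrays.

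The range of *CRM1* over the 7 arrays, 0.28, was the smallest among the 15 receptors, and 3.57% of all names had a smaller one. The other receptors ranged from 0.41 for *KAP114*, an importin of the TATA-binding protein and histones, to 0.96 for *KAP122*, which imports the general transcription factor TFIIA. Of the 6 alternative ways of processing that could alter the range, *CRM1* had the smallest of the 15 under 4, and ranked 2 of 15 from the smallest after quantile normalization and 3 of 15 without scaling between arrays.

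**Figure D1:**
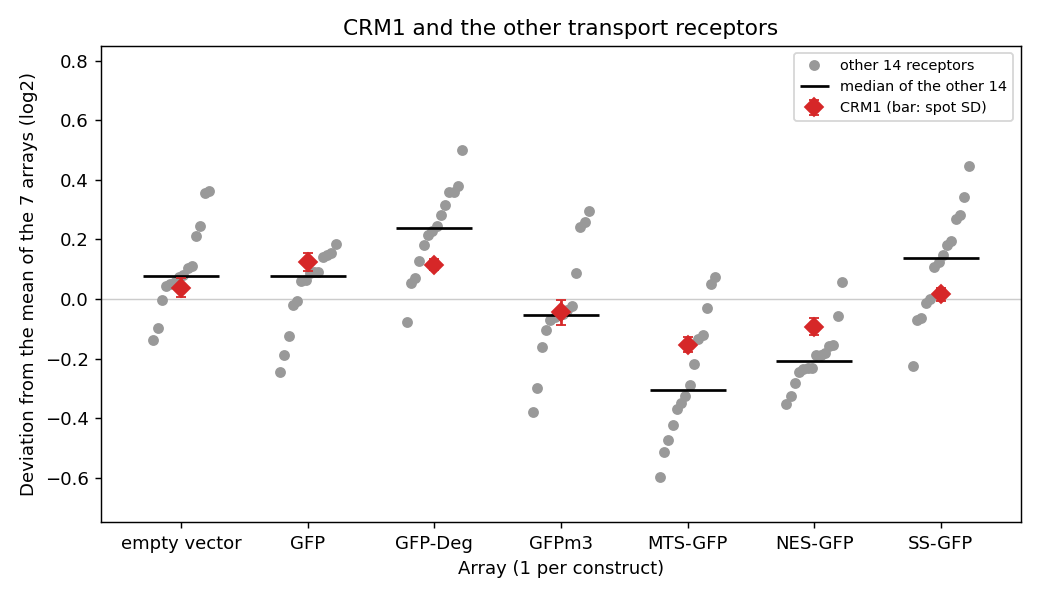
Deviation of the 15 receptor genes from their mean over the 7 arrays (y axis, log2), by array (x axis, 1 array per construct), with *CRM1* drawn apart from the other 14 and with bars for the SD between spots. *CRM1* stays between -0.15 and 0.12, while the other receptors spread from -0.60 to 0.50 and 12 of the 14 lie below it in NES-GFP.

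The contrast of *CRM1* with the other 14 receptors was small on every array. In NES-GFP *CRM1* deviated by -0.09 and the median of the others was -0.21, so that *CRM1* stood 0.12 above them. On the MTS-GFP array, whose construct carries no NES, the same gap was larger, 0.15. In GFP it was 0.05 and in GFPm3 0.01, and it was -0.04 in the empty vector and -0.12 in both GFP-Deg and SS-GFP, with *CRM1* below the others. *CRM1* was therefore nearer to its own mean than the median of the others was, where they were high as well as where they were low, apart from GFP, and the gap in NES-GFP was not particular to that construct. The order of the gaps depended on the reference. Against the slide mean the gap was 0.13 in GFP, 0.096 in MTS-GFP and 0.079 in NES-GFP.

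In NES-GFP, 12 receptors lay below *CRM1* and 2 above it. The receptors above it were *KAP120*, an importin, at 0.06 ± 0.06 (SD over 7 spots), and *MSN5*, the exportin of phosphorylated proteins such as Pho4, at -0.06. The gap between *CRM1* and the others was positive in NES-GFP under the 7 alternatives that could alter it, from 0.079 to 0.15. The sign of the deviation of *CRM1* itself was less firm, at 0.21 without scaling between arrays, a setting that moved the median of all names on the NES-GFP array to 0.27.

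Against the mean of the 7 arrays, the receptors as a group were lower in NES-GFP and MTS-GFP than in the other strains. In NES-GFP this held only once the arrays had been scaled or set against all names. Against the slide mean, the receptors were low in GFP as well (12 of 15 below, 44.1% of all names). In NES-GFP 14 of 15 receptors were below the mean of the 7 arrays, with a median of -0.19, where 56% of all names were below it. In MTS-GFP 13 of 15 were below, with a median of -0.29, against 55.9% of all names. In GFP-Deg 14 of 15 receptors were above the mean, with a median of 0.23, against 55.2% of all names. In the empty vector 12 of 15 were above the mean, against 48.6% of all names. The medians of all names were -0.04 in NES-GFP, -0.05 in MTS-GFP and 0.04 in GFP-Deg, so the receptor medians lay farther from 0 than those of the whole array. Without scaling, 2 of 15 receptors were below the mean in NES-GFP, but 14 of 15 were below the median of all names, which then stood at 0.27, and 21 of 28 nucleoporin genes and 5 of 7 genes of the Ran system were below it too. The remaining arrays were less one-sided, with 10 of 15 receptors above the mean in GFP (53.8% of all names), 4 of 15 in GFPm3 (54.7%) and 10 of 15 in SS-GFP (46.9%).

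Among the other exportins, *CSE1*, which returns importin alpha to the cytoplasm, deviated by 0.38 in GFP-Deg, -0.33 in MTS-GFP and -0.25 in NES-GFP. *LOS1*, the exportin of transfer RNA, deviated by 0.34 in SS-GFP, 0.24 in GFPm3, -0.42 in MTS-GFP and -0.28 in NES-GFP. Both were thus low on the same arrays, yet *LOS1* was high where *CSE1* was close to its mean. *MSN5* had another order, with its lowest value, -0.30, in GFPm3 and 0.05 in MTS-GFP.

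The genes of the classical import pair did not share one order of the arrays. *SRP1*, which encodes importin alpha and binds the classical nuclear localization signal, deviated by 0.08 in the empty vector, 0.15 in GFP, 0.18 in GFP-Deg, -0.11 in GFPm3, -0.35 in MTS-GFP, -0.23 in NES-GFP and 0.28 in SS-GFP. *KAP95*, which encodes importin beta, the partner that carries Srp1 through the pore, deviated by 0.36, -0.24, 0.50, -0.04, -0.12, -0.23 and -0.23 on the same arrays in that order. The pair had the same sign in the empty vector, GFP-Deg, GFPm3, MTS-GFP and NES-GFP and opposite signs in GFP and SS-GFP. These signs depended on the reference. Against the slide mean, *SRP1* and *KAP95* had the same sign in GFP (-0.06 and -0.25). Their signs were then opposite in GFP-Deg (-0.02 and 0.49) and GFPm3 (0.05 and -0.03), and as before on the other arrays. *KAP95* was 0.59 lower in NES-GFP than in the empty vector on the log2 scale (-0.59), and its spot SD in NES-GFP was 0.13, among the largest of the 50 genes. It was about as far below the empty vector in GFP (-0.60) and SS-GFP (-0.58).

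*PSE1* (also *KAP121*), an importin of ribosomal proteins and transcription factors, was among the receptors with the widest spread. It deviated by 0.11 in the empty vector, 0.18 in GFP, 0.36 in GFP-Deg, -0.06 in GFPm3, -0.51 in MTS-GFP, -0.35 in NES-GFP and 0.27 in SS-GFP. *KAP123*, the main importin of ribosomal proteins, was at -0.47 in MTS-GFP and -0.19 in NES-GFP, and its highest value, 0.30, was in GFPm3. Both importins of ribosomal proteins were thus lowest in MTS-GFP, and they differed in which array was highest.

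*KAP122* had the widest range of the receptors. It deviated by 0.36 in the empty vector, 0.09 in GFP, 0.32 in GFP-Deg, 0.09 in GFPm3, -0.60 in MTS-GFP, -0.19 in NES-GFP and -0.07 in SS-GFP, with MTS-GFP standing alone at the bottom. *SXM1*, an importin of the RNA-binding protein Lhp1, and *KAP104*, which imports the mRNA-binding proteins Nab2 and Hrp1, were also lowest in MTS-GFP, at -0.37 and -0.29. *NMD5*, an importin of the kinase Hog1, had another order, in which SS-GFP stood highest at 0.45 and NES-GFP lowest at -0.32. *MTR10*, an importin of the mRNA-binding protein Npl3, was lowest in GFPm3 at -0.38 and was at 0.07 in MTS-GFP. *KAP114* and *KAP120* deviated by at most 0.26 on the 7 arrays.

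**Figure D2:**
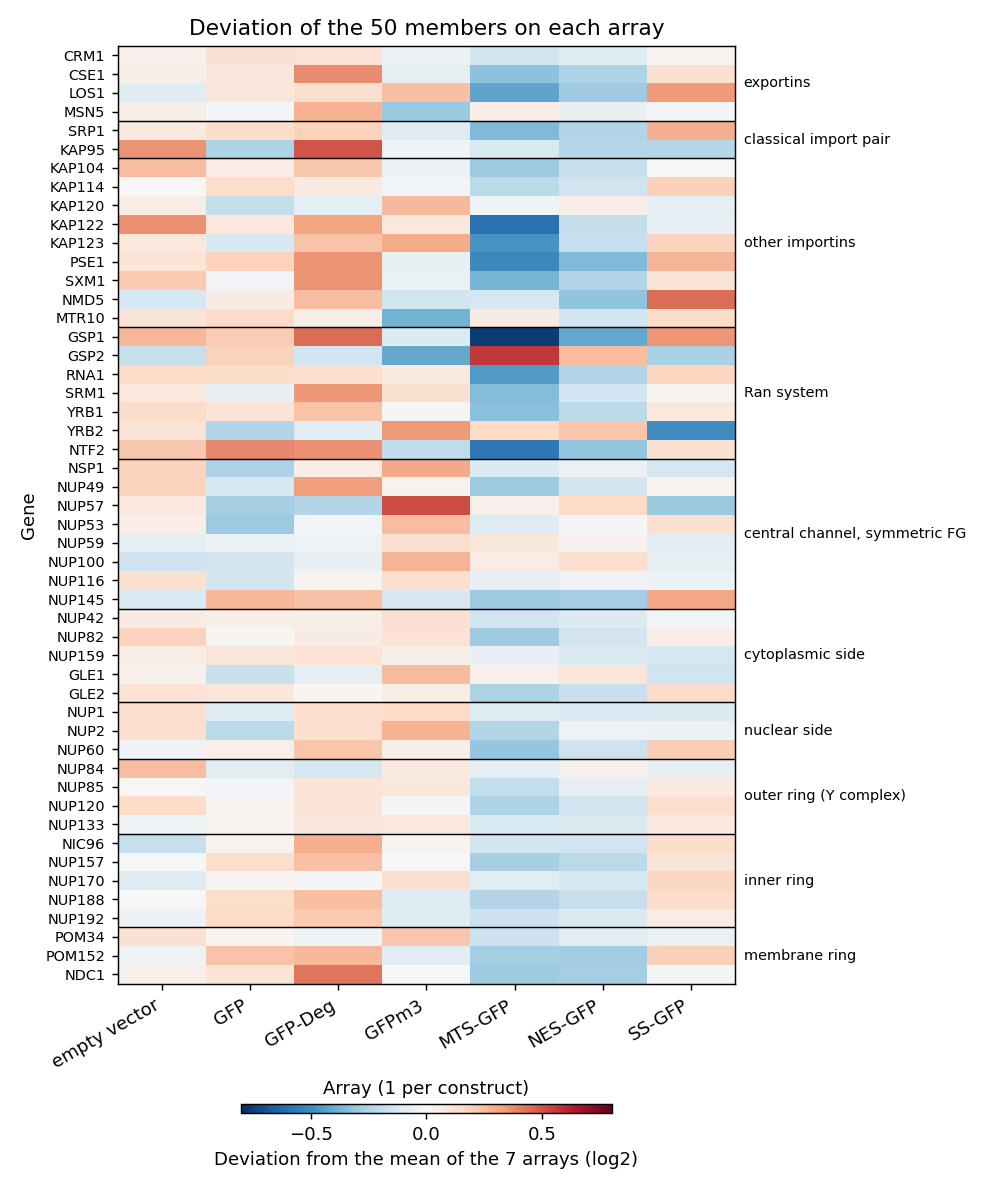
Deviation from the mean of the 7 arrays (colour, log2, red above and blue below) for each of the 50 genes (rows, grouped by role) on each array (columns). Most rows are blue on the arrays of NES-GFP and MTS-GFP, with 42 of 50 genes below the mean in each after scaling to the 75th percentile. Of all names, 56% and 55.9% were below it there. *GSP2* stands apart from *GSP1* in MTS-GFP, at 0.57 against -0.75.

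*GSP1* (*YLR293C*), which encodes the main form of Ran, was at a level of 2.95 in the empty vector, 2.89 in GFP, 3.13 in GFP-Deg, 2.58 in GFPm3, 1.93 in MTS-GFP, 2.27 in NES-GFP and 3.04 in SS-GFP. In linear terms it ran from 3.82 times the 75th percentile in MTS-GFP to 8.78 times in GFP-Deg. MTS-GFP and NES-GFP were the lowest arrays, with deviations of -0.75 and -0.41, and its range of 1.20 was the widest of the 50 genes. The value in MTS-GFP was -0.45 with loess normalization and -0.50 against the slide mean.

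*GSP2* (*YOR185C*), the second and dispensable Ran gene, stood highest where *GSP1* stood lowest. Its level was -0.19 in the empty vector, 0.18 in GFP, -0.16 in GFP-Deg, -0.41 in GFPm3, 0.56 in MTS-GFP, 0.24 in NES-GFP and -0.27 in SS-GFP. The highest arrays were MTS-GFP and then NES-GFP, with deviations of 0.57 and 0.25. The deviation of *GSP2* minus that of *GSP1* was 1.32 in MTS-GFP and 0.66 in NES-GFP, and -0.62 in SS-GFP, -0.60 in GFP-Deg, -0.45 in the empty vector, -0.30 in GFPm3 and -0.02 in GFP. The sign held under the 7 alternatives that could alter it, in MTS-GFP (1.01 to 1.77) and in NES-GFP (0.35 to 1.11). The proteins encoded by the pair are nearly identical, and whether each probe detects its own gene alone was not tested.

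The genes that load, release and recycle Ran were, like *GSP1*, low in MTS-GFP and NES-GFP, with 1 exception. *NTF2*, which brings Ran-GDP back into the nucleus, deviated by 0.21 in the empty vector, 0.38 in GFP, 0.37 in GFP-Deg, -0.20 in GFPm3, -0.57 in MTS-GFP, -0.31 in NES-GFP and 0.12 in SS-GFP. *RNA1*, the cytoplasmic GTPase-activating protein, was at -0.45 in MTS-GFP and -0.24 in NES-GFP. *SRM1*, the nuclear nucleotide exchange factor, was at -0.35 and -0.16 there, and *YRB1*, the cytoplasmic Ran-binding protein, at -0.34 and -0.21. All 4 were lowest in MTS-GFP. *YRB2*, the nuclear Ran-binding protein that assists Crm1 in export, was at 0.16 in MTS-GFP, 0.22 in NES-GFP, 0.34 in GFPm3 and -0.50 in SS-GFP, so the cofactor of *CRM1* lay above its mean in NES-GFP, as *GSP2* did, and the other 5 genes of the Ran system below theirs. For *YRB2* this rested on the slide: against the slide mean it was at 0.01 in NES-GFP and -0.05 in MTS-GFP. Of the 7 genes of the Ran system, 5 were below the mean in MTS-GFP (median -0.35, 55.9% of all names) and 5 in NES-GFP (median -0.21, 56% of all names), counts near those shares.

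**Figure D3:**
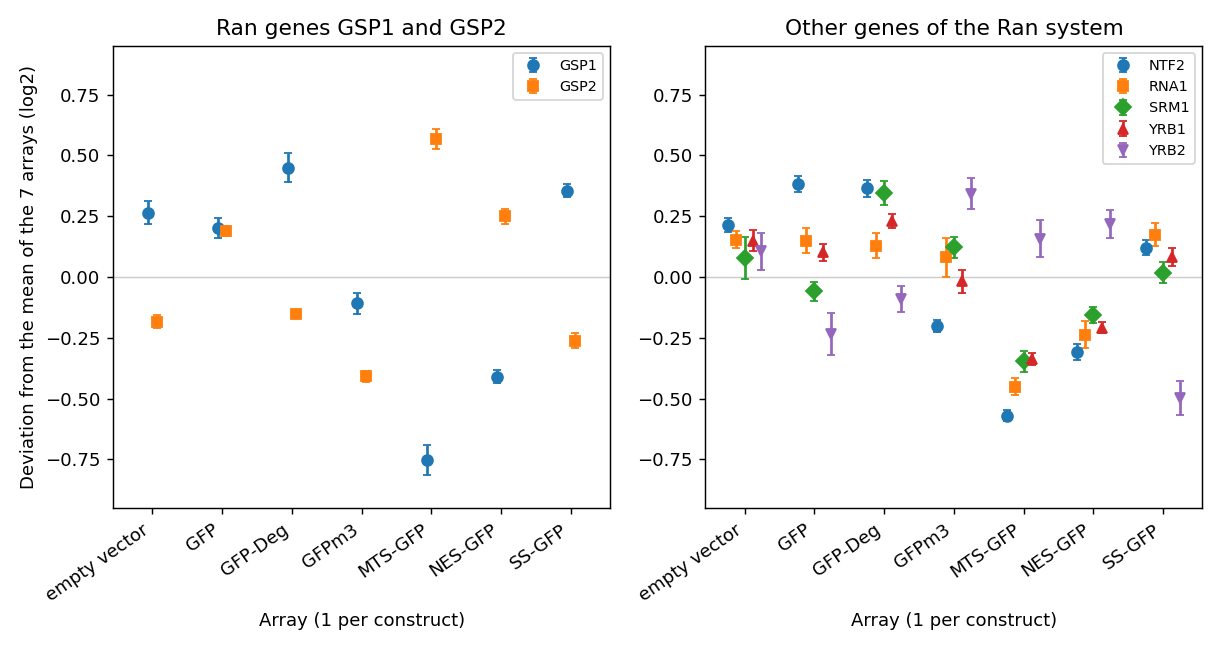
Deviation of *GSP1* and *GSP2* (left) and of the other 5 genes of the Ran system (right) from the mean of the 7 arrays (y axis, log2), by array (x axis), with bars for the SD between spots. In MTS-GFP *GSP1* is at -0.75 and *GSP2* at 0.57, and *YRB2* is above 0 there, in NES-GFP and in GFPm3.

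The nucleoporin genes had a median range of 0.43, against 0.71 for the receptors, 0.84 for the Ran system and 0.76 for all names. This order depended on the processing. Without scaling between arrays the median range was 0.63 for the nucleoporin genes and 0.55 for the receptors. The Ran system was below all names with quantile normalization (0.69 against 0.71) and with loess (0.58 against 0.69). On the scaled values 27 of the 28 had a range below the median of all names. The exception was *NUP57* at 0.82. *NUP133* of the outer ring had the smallest range of the 50 genes, 0.21, followed by *NUP59* at 0.22 and *NUP159* at 0.26. In MTS-GFP 24 of the 28 were below the mean with a median of -0.16, against 55.9% of all names. In NES-GFP 23 were, with a median of -0.12, against 56% of all names. Below the median of all names were 24 of the 28 in MTS-GFP and 21 in NES-GFP.

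**Figure D4:**
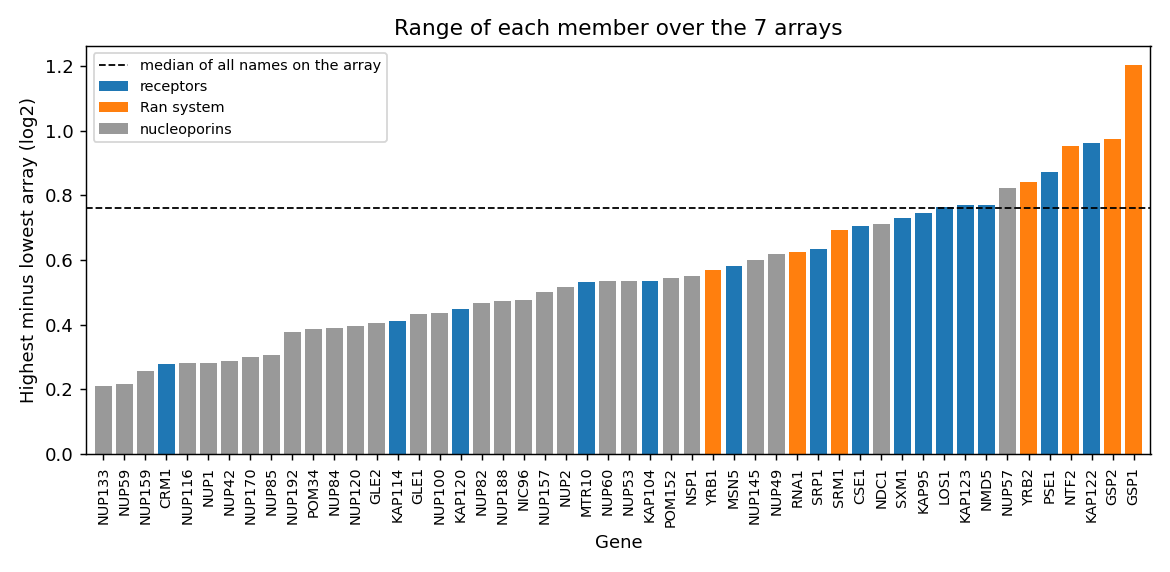
Range over the 7 arrays (log2, highest minus lowest) of each of the 50 genes, by group, beside the median range of all 6225 names. *CRM1* at 0.28 is the lowest of the receptors, 27 of 28 nucleoporin genes lie below the median of all names, 0.76, and *GSP1* at 1.20 is the highest of all.

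Against the mean of the 7 arrays, the nucleoporins of the scaffold and those of the channel did not share one order of the arrays. The 5 genes of the inner ring, the scaffold layer next to the membrane (*NIC96*, *NUP157*, *NUP170*, *NUP188* and *NUP192*), were all above the mean in GFP (median 0.14, 53.8% of all names) and in SS-GFP (median 0.14, 46.9%). All 5 were below it in MTS-GFP (median -0.17, 55.9% of all names) and NES-GFP (median -0.16, 56%). Of these, *NUP157* deviated by 0.24 in GFP-Deg, -0.26 in MTS-GFP and -0.21 in NES-GFP, and *NIC96*, which anchors the channel nucleoporins, by 0.29, -0.15 and -0.16. The 8 genes grouped as central channel and further FG nucleoporins were *NSP1*, *NUP49*, *NUP57*, *NUP53*, *NUP59*, *NUP100*, *NUP116* and *NUP145*. Of these, 7 were below the mean in GFP (median -0.15) and 7 above it in GFPm3 (median 0.19), *NUP145* being the exception in both. Of all names, 53.8% were above the mean in GFP and 54.7% in GFPm3. *NUP145*, whose product is cleaved into an FG nucleoporin and an outer ring subunit, deviated by 0.26 in GFP and -0.13 in GFPm3. The contrast between inner ring and channel genes depended on the slide. Against the slide mean in GFP, *NIC96* was at -0.12, *NUP157* at -0.02, *NUP170* at -0.04, *NUP188* at -0.03 and *NUP192* at 0.02. *NUP145* was then at -0.0064 in GFP and 0.07 in GFPm3.

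Within the channel trimer, *NUP57* deviated by 0.08 in the empty vector, -0.27 in GFP, -0.24 in GFP-Deg, 0.52 in GFPm3, 0.04 in MTS-GFP, 0.16 in NES-GFP and -0.30 in SS-GFP. The array of GFPm3 stood alone at the top and the 3 arrays of slide 2 were the lowest. *NSP1*, its partner, was also highest in GFPm3, at 0.30, and was lowest in GFP, at -0.25. *NUP49*, the other partner, was instead highest in GFP-Deg at 0.33 and lowest in MTS-GFP at -0.28, so the genes of this heterotrimer did not share one order. *NUP53* and *NUP59*, paralogues that link the rings, had ranges of 0.53 and 0.22, and *NUP100* and *NUP116*, paralogues with GLFG repeats, 0.44 and 0.28.

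On the cytoplasmic side, all 5 genes were above the mean in the empty vector (48.6% of all names) and in GFPm3 (54.7%). *NUP82*, which anchors the cytoplasmic filaments, and *GLE2*, the partner of Nup116, were lowest in MTS-GFP at -0.28 and -0.25. *GLE1*, the activator of the helicase Dbp5 in mRNA export, was at 0.04 in MTS-GFP and 0.10 in NES-GFP and was the only gene of this side above its mean on those arrays. For *GLE1* this rested on the slide: against the slide mean it was at -0.06 in MTS-GFP and -0.01 in NES-GFP. *NUP42* and *NUP159*, FG nucleoporins of the filaments, stayed within 0.16 of their means.

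On the nuclear side, the 3 basket genes *NUP1*, *NUP2* and *NUP60* were above the mean in GFP-Deg (55.2% of all names) and GFPm3 (54.7%). They were below it in MTS-GFP (55.9% of all names) and NES-GFP (56%), *NUP60* being lowest at -0.31 in MTS-GFP. The 4 genes of the outer ring were below the mean in MTS-GFP, where *NUP120* was at -0.25 and *NUP84* at -0.06. The membrane ring genes were below it in both MTS-GFP and NES-GFP. Of these, *NDC1*, which also serves the spindle pole body, deviated by 0.43 in GFP-Deg, -0.29 in MTS-GFP and -0.27 in NES-GFP, while *POM152* and *POM34* were at -0.28 and -0.09 in NES-GFP.

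Over all 50 genes, 42 were below the mean in MTS-GFP (median -0.21, 55.9% of all names) and 42 in NES-GFP (median -0.15, 56%). In GFP-Deg 39 were above it (median 0.13, 55.2% of all names). MTS-GFP was the lowest of the 7 arrays for 30 of the 50 genes, 10 of them receptors and 15 nucleoporins, against 25.1% of all names. NES-GFP was the lowest for 4 genes, against 7.24% of all names, and the highest for 0, against 3.49%. The highest array was GFP-Deg for 19 genes (22% of all names) and GFPm3 for 14 (26.6%). The NES-GFP array lay below the mean for most of these genes, and below MTS-GFP for 11 of the 50, where it did so for 47.3% of all names.

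Large deviations were few. The genes past 1.5-fold were *GSP1* and *KAP122*, both lower and both in MTS-GFP, 2 of 50 where 22.7% of all names were past this fold in the lower direction on at least 1 array. In the higher direction 0 of 50 were past it, against 24.6% of all names. Past 2-fold there were 0 genes in either direction, against 5.04% of all names lower and 7.58% higher. The count depends on the reference: 8 genes were past 1.5-fold from the empty vector on some array and 0 from the mean of their own slide. The share of all names on at least 1 array was not counted under these references, so these counts cannot be called many or few.

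Set against the empty vector alone, the receptors were lower in NES-GFP. All 15 lay below it, with a median of -0.27, and 43 of the 50 genes did, where 52.6% of all names were below. *KAP95* was the farthest below at -0.59 and *KAP120* was level with it at -0.0011. In MTS-GFP 13 of 15 receptors and 41 of 50 genes were below the empty vector, against 52.8% of all names. Both counts rest on the same empty vector array. *MSN5* and *NMD5* were the receptors above it in MTS-GFP, at 0.0050 and 0.0048, which is level with it.

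Past 1.5-fold from the empty vector, NES-GFP had *KAP95* and *GSP1* (-0.68) lower, 2 of 50 against 6.65% of all names, and 0 of 50 higher, against 7.76%. MTS-GFP had 5 genes lower, against 12.1% of all names: *GSP1* at -1.02, *KAP122* at -0.96, *NTF2* at -0.78, *PSE1* at -0.62 and *RNA1* at -0.60. It had 1 gene higher, *GSP2* at 0.75, against 10.8%. In GFP *KAP95* (-0.60) was lower, 1 of 50, where 278 of 6225 names were. In SS-GFP *YRB2* (-0.60) was lower, 1 of 50, where 350 of 6225 names were. *GSP1* was thus the only member past 2-fold from the empty vector on any array.

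The slides did not fully separate these genes. For 5 of the 50, *KAP120*, *YRB2*, *NUP57*, *GLE1* and *NUP84*, all arrays of slide 1 were above all arrays of slide 2, against 12.4% of all names. For 11 of the 50 they were all below, against 15.5%: the receptors *CSE1*, *SRP1*, *KAP114*, *PSE1* and *NMD5*, and the nucleoporin genes *NUP145*, *NIC96*, *NUP157*, *NUP188*, *NUP192* and *POM152*. With the slide mean as the reference, 14 of 15 receptors were below it in NES-GFP, with a median of -0.10, against 61.2% of all names, and 13 of these were also below the mean of the 7 arrays: *KAP120* was then at -0.03 and *MSN5* at 0.0087. In MTS-GFP 12 of 15 were below the slide mean, with a median of -0.18, against 57.3% of all names. In GFP 12 of 15 were also below it, with a median of -0.09, against 44.1% of all names. In GFPm3 3 of 15 were below it, with a median of 0.06, against 39.7% of all names. The receptor median minus that of all names was then -0.11 in GFP, -0.07 in NES-GFP and -0.13 in MTS-GFP. As the slides held different constructs, slide and construct cannot be told apart across them.

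Most of the other receptors varied with *CRM1* in the same direction. Over the 7 arrays, Pearson's r with *CRM1* was above 0 for 13 of the other 14, with a median of 0.72, the highest for *PSE1* at 0.92 and the lowest for *KAP120* at -0.49. The share of all names with r above 0 was not counted, so this count cannot be called particular to the receptors. The mean deviation of *CRM1* was -0.06 on slide 1 and 0.08 on slide 2. The arrays are 7 points that share slides, so the values of r describe likeness only. The 5 genes most like *CRM1* among those well above background on all arrays held no member: *YBL077W* at 0.996, *DIE2* (an ER glucosyltransferase) at 0.992, *EMC6* (an ER membrane complex subunit) and *GDA1* (a Golgi GDPase) at 0.991, and *DUS4* (a tRNA dihydrouridine synthase) at 0.989. With *GSP1*, the likest member was *PSE1* at 0.99, and *GSP2* was at -0.72.

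Related genes outside the 50 shared their order only in part. Of 7 other genes of the pore, *SEH1* and *SEC13*, outer ring subunits, were at -0.39 and -0.33 in MTS-GFP and at -0.25 and -0.21 in NES-GFP, while *MLP1* and *MLP2* of the basket were within 0.05 of their means there. The 15 mRNA export genes on the array had medians of -0.06 in MTS-GFP and -0.05 in NES-GFP, near those of all names. In MTS-GFP 6 of the 15 were above the mean, and they spread from -0.57 for the helicase gene *SUB2* to 0.30 for *SAC3*, a scaffold of the export complex at the pore. The 7 genes for export of ribosomal subunits, whose adaptor *NMD3* carries an NES for Crm1, were all below the mean in GFP (median -0.33) and all above it in GFPm3 (median 0.41), with 4 above in NES-GFP (median 0.06). Of all names, 53.8% were above the mean in GFP, 54.7% in GFPm3 and 44.0% in NES-GFP. On this reference the ribosome export genes did not follow the receptors, whose medians in GFP and GFPm3 were 0.09 and -0.05. Against the slide mean the receptor medians were -0.09 in GFP and 0.06 in GFPm3, so the contrast depended on the reference. The medians of the ribosome export genes were not computed against the slide mean.

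Ribosome biogenesis and stress genes also stood apart from their means on these arrays. Of 20 ribosome biogenesis genes, 19 were below the mean in MTS-GFP (median -0.32, 55.9% of all names) and 17 in NES-GFP (median -0.17, 56%), and 19 were above it in GFP-Deg (median 0.30, 55.2%). In GFPm3 19 of them were also above it (median 0.31, 54.7% of all names), where 4 of 15 receptors were. Against the slide mean, however, 3 of 15 receptors were below in GFPm3, with a median of 0.06. Of 14 general stress genes, 14 were above the mean in MTS-GFP (median 1.05, 44.1% of all names) and 11 in NES-GFP (median 0.26, 44.0%). The part of growth or stress in the values of the transport genes was not tested.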

How the data were processed

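Total RNA of 1 culture per strain was extracted with hot phenol, labelled by the one-color Cy3 method and hybridized to Agilent yeast oligo arrays. The authors deposited the output of Feature Extraction 10.10.1.1, whose processed intensity is background-subtracted and linear, with no scaling between arrays. The deposited table of intensity values for the series was identical to it at all 45209 spots. The deposited files also hold spot flags. The authors' later processing used agilp.

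Control and outlier spots (252 to 373 of the yeast spots per array) were left out, log2 was taken and set to 0 at the array's own 75th percentile, and values were averaged over the 7 spots per probe and over probes per name (Python 3.11.15, pandas 2.3.3; alternatives with limma 3.58.1 in R 4.3.3). The 75th percentile lay between 3719 and 5626. A gene was well above background where at least 4 spots of each probe were. Symbols came from the reference gene table, 49 members by symbol and *NUP59* by its synonym. The steps were tested on simulated arrays.

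The alternatives were quantile and loess normalization, no scaling, normexp (offset 50) with quantile normalization, a filter on dim genes, the median over spots, the series table, and the empty vector, the median of the 7 arrays or the slide mean as reference. Genes named were the 50 members and the 5 genes most like *CRM1*, other genes being given from lists by function. Members and lists were chosen with earlier results of these data known. Promoter motifs and sequences were not analysed here.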

Additional observations from a re-analysis of the deposited data

How the results depend on the processing

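The gap between *CRM1* and the other 14 receptors in NES-GFP was 0.12, about the size of the pooled SD between spots, 0.11. It ran from 0.079 to 0.15 under the 7 alternatives that could alter it, and 3 left it identical by construction. Without scaling between arrays, which moved the median of all names in NES-GFP to 0.27, *CRM1* was at 0.21 and the median of the 50 genes at 0.15, and 2 of 15 receptors were below the mean, although 14 of 15 were below the median of all names. The count of genes past 1.5-fold was 1 with normexp and quantile normalization, 8 with the empty vector as reference, 7 with the median of the 7 arrays and 0 with the slide mean, and the count past 2-fold was 1 with the empty vector and 0 under the other 9. The share of all names past either fold was not counted under these settings. *GSP1* in MTS-GFP ran from -1.02 (empty vector as reference) to -0.45 (loess), *GSP2* from 0.51 to 0.75 and *KAP122* from -0.96 to -0.51, each with its sign kept. The causes of these shifts were not tested. No paired analysis was possible because each construct has 1 array. The number of arrays limits the precision: deviations of the size seen for most members cannot be set against differences between cultures.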

Other observations

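In the reference gene order *KAP114* and *CSE1* lie on either side of *DOC1*, a subunit of the anaphase-promoting complex, which deviated by 1.97 in GFP-Deg, while *KAP114* was at 0.07 and *CSE1* at 0.38 on that array. *DOC1* was chosen after its values were seen. Among the pore genes outside the 50, *POM33* and *PER33*, paralogous membrane proteins of the pore and the ER, were at -0.90 and -0.55 in GFPm3, farther from the mean than any of the 50 on that array was in the lower direction.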
